A study of Mus musculus with 4 samples.

Results

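The genes described here are 9 genes of the switch from glucose to fat as mitochondrial fuel, chosen by symbol: the nuclear receptor gene Ppard, the pyruvate dehydrogenase kinase genes Pdk4 and Pdk2, Angptl4, the carnitine palmitoyltransferase genes Cpt1a and Cpt2, the beta-oxidation genes Acadvl and Hadha, and the mitochondrial carrier gene Ucp2. They are 9 of the 22700 rows in each deposited file, and each symbol stands in 1 row. Male mice aged 12 weeks gave bone marrow, and RNA of the cultured cells was sequenced as read pairs after depletion of ribosomal RNA. There were 4 libraries in 4 groups of 1: db/db marrow in GM-CSF, db/+ marrow in GM-CSF, db/db marrow in M-CSF and db/+ marrow in M-CSF. The db/db mice (BKS.Cg-m+/+leprdb/J) carry the diabetes mutation of the leptin receptor gene Lepr and are obese and diabetic, and the db/+ littermates (BKS.Cg-m+/+leprdb+/J) carry 1 copy of it and served as controls. Cultures lasted 7 to 8 days in either GM-CSF at 20 ng/ml, a cytokine that gives rise to macrophages and dendritic-type cells, or M-CSF at 10 ng/ml, the main growth factor of macrophages. The sources used here do not say whether a library came from 1 mouse or from several.

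Cells that turn from glucose to fat keep pyruvate out of the mitochondrion's oxidative pathway and carry long-chain fatty acids in. PPAR-delta, encoded by Ppard, is a nuclear receptor that fatty acids activate. It binds DNA with a retinoid X receptor and is known to raise Pdk4, Angptl4 and Cpt1a in several tissues, macrophages among them. Pyruvate dehydrogenase kinases phosphorylate and switch off the enzyme complex that feeds pyruvate into the citric acid cycle.

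The promoters of 3 of the genes are shown because the first is that of the gene whose level varied most and the other 2 are those with a nuclear receptor hexamer. The sequences are RefSeq's on GRCm38.p6, which is not a build that the submitters named, and each runs from 250 bases before to 50 bases after an annotated start. Capitals mark the hexamer AGGTCA, to which nuclear receptors such as PPAR-delta and its partner bind, and the CCAAT box, each on either strand, so that they also appear as TGACCT and ATTGG.
Pdk4 promoter, chr6:5496229-5496528, minus strand: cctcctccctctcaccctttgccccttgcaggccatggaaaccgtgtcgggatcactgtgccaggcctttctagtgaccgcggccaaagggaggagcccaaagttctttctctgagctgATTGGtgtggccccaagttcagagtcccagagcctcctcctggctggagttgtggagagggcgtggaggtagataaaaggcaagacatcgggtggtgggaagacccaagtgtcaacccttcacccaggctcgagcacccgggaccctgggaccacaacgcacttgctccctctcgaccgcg
Cpt1a promoter, chr19:3323051-3323350, plus strand: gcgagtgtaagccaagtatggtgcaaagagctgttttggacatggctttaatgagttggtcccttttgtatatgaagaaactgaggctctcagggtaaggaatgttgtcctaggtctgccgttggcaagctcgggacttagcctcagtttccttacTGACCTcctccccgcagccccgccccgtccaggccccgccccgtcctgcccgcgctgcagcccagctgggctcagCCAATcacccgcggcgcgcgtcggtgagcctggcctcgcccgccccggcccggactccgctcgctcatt
Acadvl promoter, chr11:70015379-70015678, minus strand: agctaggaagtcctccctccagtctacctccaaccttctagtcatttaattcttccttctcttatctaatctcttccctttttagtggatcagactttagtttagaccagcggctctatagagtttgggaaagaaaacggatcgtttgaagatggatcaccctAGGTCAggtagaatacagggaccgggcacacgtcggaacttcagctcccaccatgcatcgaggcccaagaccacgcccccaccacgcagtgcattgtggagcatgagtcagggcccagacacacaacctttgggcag

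The table of promoters holds 8 of the 9 genes (Angptl4 is the other), with 9 promoters since Pdk2 has 2. AGGTCA was present in 2 of these 9, those of Cpt1a and Acadvl, against 16.3% of all 32851 promoters of that length. The direct repeat AGGTCANAGGTCA, to which PPAR and its partner bind together, was in 0 of the 9 and in 0.0396% of all promoters. The CCAAT box was in 4 of the 9 (those of Pdk4, Cpt1a and Ppard and 1 of the 2 of Pdk2), against 37.4% of all. A match is a description of letters, not of binding.

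Depth was 28622706 reads in db/db and 27216116 in db/+ GM-CSF, and 27590722 in db/db and 25603389 in db/+ M-CSF. Levels are normalised read counts, the authors' counts divided by 1 size factor per library. Ratios carry 95% exact conditional binomial intervals on read pairs, which cover counting error only, and no ratio between 2 libraries had a replicate check. For log2 folds 5 was added to each normalised count, so the change of low genes is understated. All 9 genes reached the level minimum of 20 normalised reads in at least 1 library, as did 13642 of all rows. Lepr was at 60.3 in db/db and 49.4 in db/+ GM-CSF and at 21.8 in db/db and 6.7 in db/+ M-CSF, and since the mutation alters splicing, this total does not check the genotype. All 12 macrophage markers listed were at 20 or more in every library. Each library is RNA of a whole culture, in which fewer cells of a type and less RNA per cell cannot be told apart.

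Per kilobase of exon, Ucp2 stood highest of the 9 in every library, at 4452 normalised reads per kb in db/db and 4238 in db/+ GM-CSF, and at 4328 in db/db and 5630 in db/+ M-CSF. Hadha, Acadvl and Cpt1a followed, all between 855 and 1308 per kb. In the GM-CSF libraries the order after Ucp2 was Hadha, Acadvl, Cpt1a, Cpt2, Ppard, Pdk2, Angptl4 and Pdk4, and in the M-CSF libraries Cpt1a came before Hadha. The intervals of Acadvl and Cpt1a overlapped in both GM-CSF libraries, as did those of Cpt2 and Ppard. Those of Hadha and Acadvl overlapped in db/+ GM-CSF, and those of Ppard and Pdk2 in db/+ M-CSF. In db/db M-CSF those of Cpt1a and Hadha and of Pdk2 and Angptl4 overlapped. An overlap of separate intervals does not show that 2 levels are alike, and the differences between these neighbours were not tested. Pdk4 moved most in this order. It took place 5 in db/db M-CSF at 400 per kb (373 to 429), place 8 in db/+ M-CSF at 154 (137 to 173, overlapping Pdk2 at 167), and last in both GM-CSF libraries. Exon lengths came from GENCODE M21, not from the authors' annotation, so an order between genes is approximate.

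**Figure D1:**
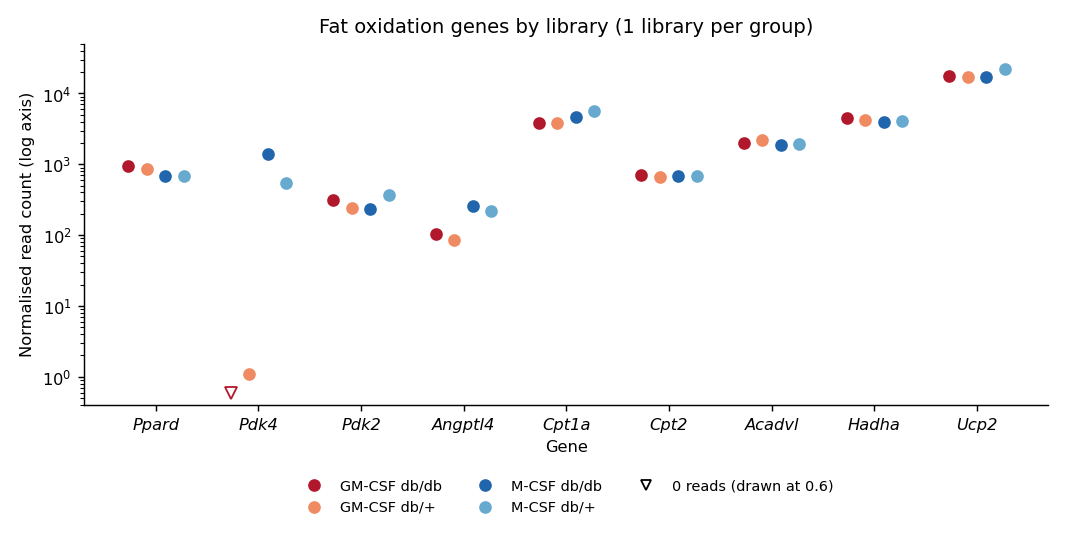
Normalised read counts (log axis) of the 9 genes in the 4 libraries, 1 point per library, with a library at 0 reads drawn as an open triangle. Pdk4 lies at 0 and 1.1 in the GM-CSF pair and at 1394 and 537 in the M-CSF pair, while the 4 points of each of the other 8 genes lie within 3.05-fold of each other.

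The first question was how cells of diabetic mice differed from those of control mice. In M-CSF, Pdk4 was higher in db/db, Pdk2, Cpt1a and Ucp2 were lower by less than 2-fold, and the other 5 genes had intervals that included no difference. Pdk4, the kinase that rises with fasting in many tissues, was at 1394 normalised reads in db/db cells and 537 in db/+ cells (ratio 2.59, 2.26 to 2.98). It was the only one of the 9 at least 2-fold apart, against 5.83% of the 13642 genes (5.05% at least 2-fold higher). Its log2 fold of 1.37 was exceeded by 301 genes.

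Pdk2, a kinase of the same family that is expressed in most tissues, went the other way in M-CSF, at 233 in db/db cells and 375 in db/+ cells (ratio 0.621, 0.495 to 0.777). Only 270 of the 13642 genes had a lower log2 fold than its -0.68. Cpt1a, which makes acylcarnitines at the outer mitochondrial membrane and is the controlled step of fat entry, was at 4591 in db/db cells and 5646 in db/+ cells (ratio 0.813, 0.771 to 0.857). Ucp2, a carrier of the inner membrane that is abundant in macrophages, was at 17261 in db/db cells and 22451 in db/+ cells (ratio 0.769, 0.749 to 0.790). A lower log2 fold was found in 1389 of the 13642 genes for Cpt1a and in 923 for Ucp2. The intervals of these 3 genes lay below 1 and that of Pdk4 above it, which goes beyond counting error but has no replicate check. Over all genes the M-CSF libraries also differed by more than counting error, as given below.

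The remaining 5 genes were close between the M-CSF libraries. Ppard was at 679 in db/db and 678 in db/+ (ratio 1.0, 0.865 to 1.16). Cpt2, which frees the fatty acid from carnitine inside the mitochondrion, was at 685 in db/db and 691 in db/+ (0.992, 0.858 to 1.15). Acadvl, the dehydrogenase that starts the oxidation of very long chains, was at 1853 in db/db and 1918 in db/+ (0.967, 0.886 to 1.05). Hadha, the alpha subunit of the trifunctional protein that carries out the later steps, was at 4020.4 in db/db and 4064 in db/+ (0.989, 0.932 to 1.05). Angptl4, a secreted inhibitor of lipoprotein lipase, was at 256 in db/db and 223 in db/+ (1.15, 0.897 to 1.48), the widest of these intervals because it has the fewest reads.

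In GM-CSF 0 of the 9 genes were at least 2-fold apart between db/db and db/+, against 1.06% of all genes. Pdk4 was at 0 reads in db/db and 1 read in db/+, so no ratio is given. A count of 0 allows up to 6.45 normalised reads in the db/db library. Pdk2 was at 314 in db/db cells and 240.0 in db/+ cells (ratio 1.31, 1.01 to 1.70), on the opposite side of 1 from M-CSF. Ucp2 was at 17753 in db/db cells and 16899.9 in db/+ cells (1.05, 1.02 to 1.08), also on the opposite side, and Acadvl was at 1977 in db/db cells and 2178 in db/+ cells (0.908, 0.829 to 0.995). Cpt1a was level, at 3882 in db/db and 3887 in db/+ (0.998, 0.934 to 1.07). The differences between these genotype ratios in M-CSF and in GM-CSF were not tested, since 4 single libraries leave no residual degree of freedom for an interaction.

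Of the other 4 genes, Ppard, Angptl4 and Cpt2 had GM-CSF intervals that included 1, and that of Hadha began at 1.0 as rounded. Ppard was at 956 in db/db and 848 in db/+ (1.13, 0.981 to 1.30), and Angptl4 at 103 in db/db and 84.1 in db/+ (1.23, 0.784 to 1.94). Cpt2 was at 696 in db/db and 660 in db/+ (1.06, 0.898 to 1.24). Hadha was at 4558 in db/db and 4269 in db/+ (1.07, 1.0 to 1.14). For all genes with 200 to 1000 normalised reads, the mean squared log2 ratio between genotypes was 7.01 times the counting variance in M-CSF and 1.09 times in GM-CSF. For genes with 1000 to 10000, among them Cpt1a, Acadvl and Hadha, it was 18.3 times in M-CSF and 1.44 times in GM-CSF. The intervals are therefore narrower than the spread between the libraries, most of all in M-CSF. An interval that ends near 1, such as those of Acadvl and Pdk2 in GM-CSF, does not show a difference.

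**Figure D2:**
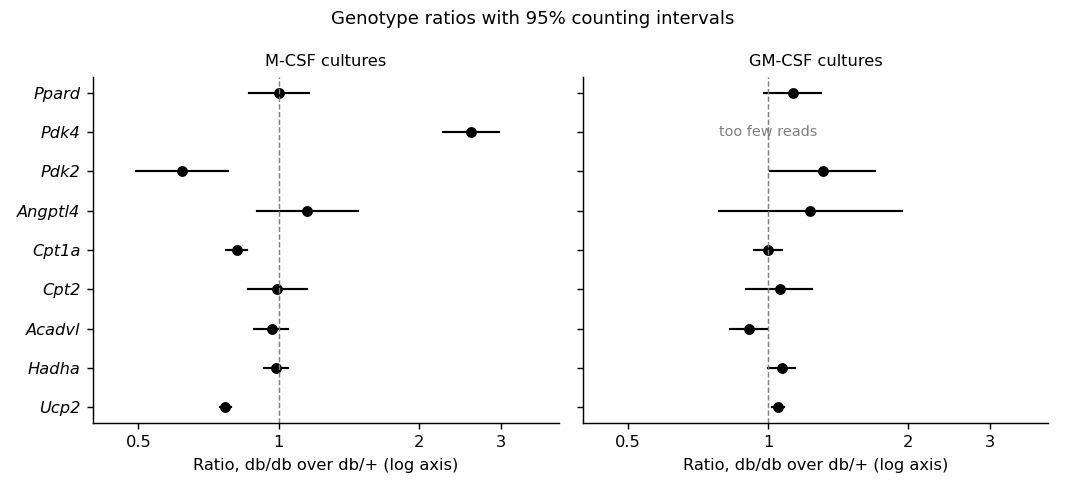
Ratio of db/db over db/+ (log axis) for the 9 genes in M-CSF cultures (left) and GM-CSF cultures (right). Points are ratios of 1 library to 1 library and bars are 95% counting intervals. In M-CSF, Pdk4 is at 2.59 and Pdk2 at 0.621, and in GM-CSF Pdk2 is at 1.31 and Pdk4 has too few reads for a ratio.

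The main effect of genotype was tested with limma on both cultures together, with culture as a second factor, 2 libraries a side and 1 residual degree of freedom. Of all 13642 genes 1 passed (0.00733%), the matrix gene Sparc, and 0 of the 9 genes passed. At an unadjusted p under 0.05 limma also gave 0 of the 9, DESeq2 on recovered reads passed 0 after adjustment, and edgeR passed 1. That gene was Pdk4, with an edgeR log2 fold of 1.33 and an adjusted p of 0.00399 (0.00399 to 1.0 over the alternatives), against a limma log2 fold of 0.54 (SE 0.36, limma adjusted p = 1.0). The GM-CSF libraries hold 1 read of Pdk4 between them, so the value comes from M-CSF.

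The M-CSF libraries also differed in transcripts of fibroblasts and other stromal cells, beside which the Pdk4 values have to be read. Of 17 such markers at the level minimum, 15 were higher by 2-fold or more in db/db, against 5.05% of all genes, and their median ratio was 2.69 (range 0.475 to 3.44). Their summed level was 109856 in the db/db and 38987 in the db/+ M-CSF library, and Pdk4 came to 12.7 normalised reads per 1000 of these in db/db and 13.8 in db/+. In GM-CSF the sum was 19871 in db/db and 19983 in db/+, or 541 and 484 without Fstl1, with Col3a1, Lum and Dcn at 0 in db/db and Lum at 0 in db/+. Pdk4 per 1000 was 0 in db/db and 0.0550 in db/+ GM-CSF, from 0 reads and 1 read. Without Fstl1 it was 0 in db/db and 2.27 in db/+ GM-CSF, against 13.3 in db/db and 14.5 in db/+ M-CSF. Fbn1, Cxcl12, Col3a1 and Tpm2 were among the 5 genes whose profile over the 4 libraries lay nearest to that of Pdk4, out of 10175 genes that reached 200 in a library. Their root mean squared differences in centred log2 level were 0.10 to 0.15. Fbn1, the gene of the matrix protein fibrillin, was at 1485 in db/db and 594 in db/+ M-CSF and at 1.1 in both GM-CSF libraries. Fbn1, Cxcl12 and Col3a1 are among the stromal markers listed. The part of stromal transcripts in the Pdk4 result was not tested.

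Of 11 markers of fat cells, another type that uses these genes, 2 reached the minimum. Lipe, a lipase that macrophages also express, was at 289 in db/db and 308 in db/+ GM-CSF and at 557 in db/db and 742 in db/+ M-CSF. Plin4, a lipid droplet protein, was at 32.3 in db/db and 40.4 in db/+ GM-CSF and at 302 in db/db and 126 in db/+ M-CSF. The sum over the list was 882 in db/db and 900 in db/+ M-CSF, and 331 in db/db and 359 in db/+ GM-CSF. Lipe made up most of each sum, and in M-CSF it was lower in db/db where Plin4 was higher. The closeness of the M-CSF sums therefore does not show that fat cell transcripts were level. The fat cell hormone gene Adipoq was at 12.2 in db/db and 4.8 in db/+ M-CSF, and at 0 in db/db and 2.3 in db/+ GM-CSF, and Lep, Pck1 and Cidea were at 0 in both GM-CSF libraries and in db/db M-CSF. The part of such cells was not tested.

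The second question was how culture in GM-CSF differed from culture in M-CSF. In GM-CSF Pdk4, Angptl4 and Cpt1a fell and Ppard rose, the last not when reads were scaled to library totals, while the other 5 genes did not pass the test. In db/db marrow Pdk4 was at 0 reads in GM-CSF against 1394 normalised reads in M-CSF, at least 216-fold lower when the GM-CSF library is set to 3 read pairs. In db/+ marrow it was at 1.1 in GM-CSF against 537 in M-CSF, from 1 read and 565, a ratio of 0.00209 (2.04e-06 to 0.0197). Only 19 genes in db/db and 32 in db/+ had a lower log2 fold than Pdk4.

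Angptl4 was at 103 in GM-CSF against 256 in M-CSF in db/db (0.403, 0.285 to 0.562), and at 84.1 against 223 in db/+ (0.378, 0.254 to 0.550). Pdk4 and Angptl4 were thus the 2 of the 9 that were at least 2-fold lower in GM-CSF in each marrow, against 15.8% of all genes in db/db and 15.7% in db/+. Of all genes at least 2-fold apart, 41.8% were higher in GM-CSF in db/db and 43.3% in db/+, or 27.5% and 29.3% with reads scaled to library totals. Cpt1a was at 3882 in GM-CSF against 4591 in M-CSF in db/db (0.845, 0.796 to 0.898) and at 3887 against 5646 in db/+ (0.689, 0.649 to 0.731). Ppard was at 956 in GM-CSF against 679 in M-CSF in db/db (1.41, 1.23 to 1.62) and at 848 against 678 in db/+ (1.25, 1.08 to 1.45). The receptor gene lay on the opposite side of 1 from these 3 known targets, but scaled to library totals its log2 folds were 0.14 in db/db and -0.00 in db/+.

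Pdk2 and Ucp2 had unlike culture ratios in the 2 marrows. Pdk2 was at 314 in GM-CSF against 233 in M-CSF in db/db (1.35, 1.06 to 1.72), but at 240.0 against 375 in db/+ (0.640, 0.501 to 0.815). Ucp2 was at 17753 in GM-CSF and 17261 in M-CSF in db/db (1.03, 0.999 to 1.06), but at 16899.9 against 22451 in db/+ (0.753, 0.731 to 0.775). In both genes the M-CSF db/+ library was the highest of the 4. Scaled to library totals, the db/db log2 folds were 0.07 for Pdk2 and -0.32 for Ucp2, and Ucp2 was then lower in db/+ as well, at -0.74. The comparisons of culture in the 2 genotypes share no library, and their difference was not tested.

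The 3 enzymes of the inner membrane and matrix varied least. Cpt2 was at 696 in GM-CSF and 685 in M-CSF in db/db (1.02, 0.875 to 1.18), and at 660 and 691 in db/+ (0.955, 0.816 to 1.12). Its highest library was 1.06 times its lowest. Hadha was at 4558 in GM-CSF and 4020.4 in M-CSF in db/db (1.13, 1.07 to 1.2), and at 4269 and 4064 in db/+ (1.05, 0.987 to 1.12). Acadvl was at 1977 in GM-CSF and 1853 in M-CSF in db/db (1.07, 0.976 to 1.17), and at 2178 and 1918 in db/+ (1.14, 1.04 to 1.24). All 3 had log2 folds below 0 when scaled to library totals, -0.33 for Cpt2, -0.18 for Hadha and -0.26 for Acadvl in db/db, so their direction depends on the scaling.

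**Figure D3:**
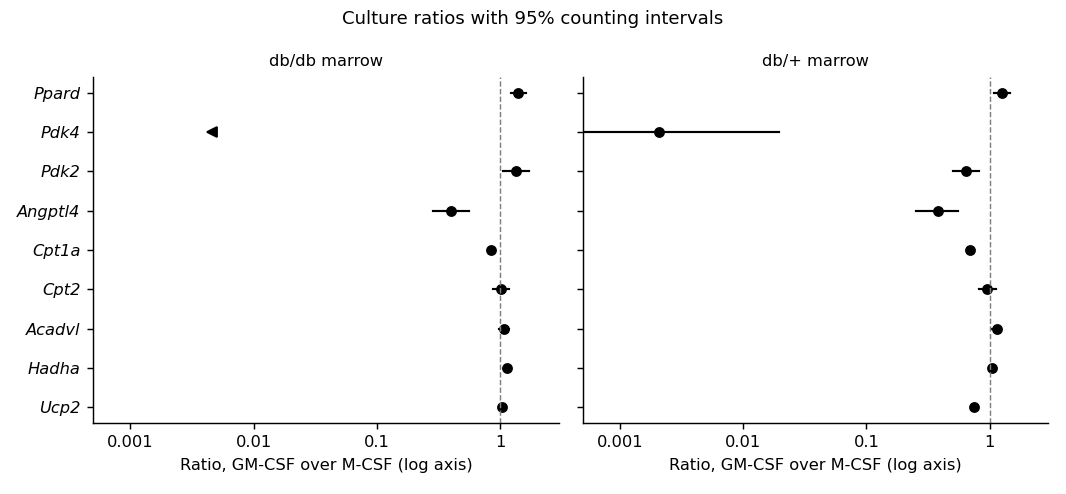
Ratio of GM-CSF over M-CSF (log axis) for the 9 genes in db/db marrow (left) and db/+ marrow (right). Points are ratios of 1 library to 1 library with 95% counting intervals, the db/+ interval of Pdk4 runs beyond the left edge, and the arrowhead marks 0.00463 for Pdk4 in db/db, the ratio with the 0 reads of GM-CSF set to 3 read pairs. Angptl4 lies at 0.403 and 0.378, and the other 7 genes between 0.640 and 1.41.

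In limma's test of culture, with genotype as the second factor and 2 libraries a side, 4 of the 9 genes passed, against 57.1% of all 13642 genes, so the share is not particular to them. Pdk4 had a log2 fold of -7.30 (SE 0.36, limma adjusted p = 3.11e-10), Angptl4 of -1.31 (SE 0.21, adjusted p = 8.27e-05), Cpt1a of -0.39 (SE 0.09, adjusted p = 0.00206) and Ppard of 0.41 (SE 0.11, adjusted p = 0.00653). With 0 reads and 1 read in GM-CSF, the size of the Pdk4 fold is set by the pseudocount or the tool: it was -9.22 with a pseudocount of 1, -5.43 with 20, -10.53 with edgeR and -10.73 with DESeq2. All genes together split into 4062 higher (29.8%) and 3725 lower (27.3%), or 52.2% of calls higher. With reads scaled to library totals, which shifted the median log2 fold of all genes to -0.31 from 0.02, 26.5% of calls were higher. Under that scaling Ppard was at 0.07 (limma adjusted p = 0.616, 0.00236 to 0.616 over the alternatives), and Acadvl and Hadha turned to -0.20 and -0.22. Hadha, Cpt2 and Ucp2 then passed as lower in GM-CSF (limma adjusted p = 0.0343, 0.0159 and 0.00101). Pdk4, Angptl4 and Cpt1a were still lower at -7.49, -1.64 and -0.73. No culture had a replicate within a genotype. The error of the fit comes from how far the culture effect differed between the 2 genotypes, moderated by a trend over all genes.

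Marker lists moved with culture as well. Of 17 stromal markers tested 16 fell in GM-CSF, with a median log2 fold of -6.82 at the same pseudocount of 5, and 1 rose. Of 9 neutrophil markers 8 fell and 1, Mmp8, rose. The summed neutrophil level was 25048 in db/db and 23541 in db/+ GM-CSF, and 17926 in db/db and 17168 in db/+ M-CSF, with Mpo and Camp at 0 in db/db GM-CSF and Prtn3 at 0 in db/+ GM-CSF. Without Mmp8 that sum was 912 in db/db and 784 in db/+ GM-CSF, and 16654 in db/db and 15885 in db/+ M-CSF, so the direction turns on this gene. Of 10 dendritic cell markers 7 rose and 2 fell, and their sum was 10218 in db/db and 10146 in db/+ GM-CSF against 2017 in db/db and 2061 in db/+ M-CSF, with Flt3 at 0 in both GM-CSF libraries. Of 12 macrophage markers 4 rose and 6 fell, among them Adgre1 (listed as Emr1) at 11449.7 in db/db and 11230.3 in db/+ GM-CSF against 97863 in db/db and 98662 in db/+ M-CSF. The macrophage sum was 806574 in db/db and 807210 in db/+ GM-CSF against 514082 in db/db and 545195 in db/+ M-CSF, with 0 markers at 0. Without Lyz2, the gene of lysozyme, it was 184786 in db/db and 180530 in db/+ GM-CSF against 271363 in db/db and 295171 in db/+ M-CSF, so here too 1 gene sets the direction. Of 7 lymphoid and erythroid markers 1 rose and 4 fell, and that list summed to 84.0 in db/db and 81.9 in db/+ GM-CSF and to 288 in db/db and 194 in db/+ M-CSF, with Ms4a1, Cd3g and Nkg7 among those at 0 in both GM-CSF libraries. The part of these cell types in the culture effects was not tested.

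The 5 genes whose profile lay nearest to that of Angptl4 were Hist1h2bm, Zfp821, Mmp27, Rybp and Igf1r, with root mean squared differences of 0.03 to 0.07 in centred log2 level over the 4 libraries. With 4 libraries, many genes share such a profile. Rybp, for example, was at 535 in db/db and 448 in db/+ GM-CSF and at 1354 in db/db and 1282 in db/+ M-CSF.

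The kinases and phosphatases that act on pyruvate dehydrogenase put Pdk4 and Pdk2 in context. Pdk1, a kinase that hypoxia raises, was at 3937 in db/db and 3996 in db/+ GM-CSF against 1411 in db/db and 1396 in db/+ M-CSF, and it rose with a log2 fold of 1.5 (SE 0.09, limma adjusted p = 1.53e-09). Pdk3 was at 662 in both GM-CSF libraries and at 724 in db/db and 541 in db/+ M-CSF. Per kilobase of exon, Pdk4 made up 0% of the 4 kinase transcripts in db/db and 0.0265% in db/+ GM-CSF, and 35.8% in db/db and 18.2% in db/+ M-CSF. Pdk1 made up 62.7% in db/db and 64.7% in db/+ GM-CSF, and 24.3% in db/db and 31.8% in db/+ M-CSF. The opposing phosphatase genes Pdp1 and Pdp2 rose in GM-CSF with log2 folds of 0.77 and 0.64. Mpc1, a subunit of the mitochondrial pyruvate carrier listed as Brp44l, was at 1644 in db/db and 1486 in db/+ GM-CSF against 457 in db/db and 409 in db/+ M-CSF. In this list of 14 genes, 10 rose in GM-CSF, 2 fell (Pdk4 and Pdpr) and 2 did not pass, with a median of 0.51 against 0.02 for all genes. With library-total scaling 5 rose and 2 fell.

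**Figure D4:**
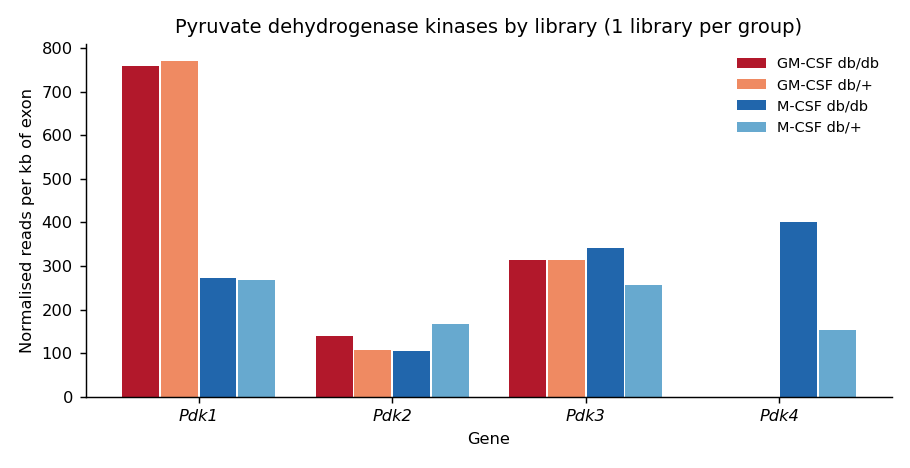
Levels of the 4 pyruvate dehydrogenase kinase genes in normalised reads per kilobase of exon, 1 bar per library. Pdk4 is at 400 and 154 in the M-CSF libraries and has no visible bar in GM-CSF, where Pdk1 is at 759 and 771.

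Among 21 mitochondrial beta-oxidation genes, 11 rose in GM-CSF, 1 fell and 9 did not pass limma's test, with a median log2 fold of 0.29. With library-total scaling 4 rose and 4 fell and the median was -0.05, so no direction can be given for the list. Echs1, an enoyl-CoA hydratase, was at 2617 in db/db and 2730 in db/+ GM-CSF against 1440 in db/db and 1392 in db/+ M-CSF, and Etfb, a subunit of the electron carrier that takes up the electrons, was at 1629 and 1703 against 1034 and 928 in the same order. Both rose under either scaling. Hadhb, the partner subunit of Hadha, was at 697 in db/db and 712 in db/+ GM-CSF against 642 in db/db and 535 in db/+ M-CSF and did not pass (limma adjusted p = 0.0830). Between the M-CSF libraries 0 of the 21 genes were at least 2-fold apart and the median was 0.12, against 0.02 for all genes.

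For the entry of fatty acids, Acsl1 and Acsl4, which attach coenzyme A, rose in GM-CSF. Acsl1 was at 6892 in db/db and 6947 in db/+ GM-CSF against 1514 in db/db and 1474 in db/+ M-CSF, and Acsl4 at 12375 and 12377 against 4359 and 3859 in the same order. Slc25a20, the carrier that takes acylcarnitine across the inner membrane between Cpt1a and Cpt2, was at 519 in db/db and 547 in db/+ GM-CSF and at 479 in db/db and 547 in db/+ M-CSF. Cpt1b, the muscle form of Cpt1a, was under 40 in every library. Of 14 genes tested 5 rose, 2 fell (Cpt1a and Cpt1c) and 7 did not pass, with a median of 0.26, and with library-total scaling 4 rose and 4 fell. Between the M-CSF libraries 1 was at least 2-fold apart: Acacb, the acetyl-CoA carboxylase that restrains Cpt1a, was at 26.1 in db/db cells and 63.7 in db/+ cells (0.410, 0.207 to 0.775), a gene chosen after its value was seen.

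Peroxisomal beta-oxidation stood higher in GM-CSF, with 10 of 14 genes risen and 2 fallen, against 29.8% and 27.3% of all genes. With library-total scaling 8 rose and 3 fell. Ehhadh, the peroxisomal bifunctional enzyme, was at 203 in both GM-CSF libraries against 53.1 in db/db and 51.4 in db/+ M-CSF. Acox3, an acyl-CoA oxidase, was at 6623 in db/db and 6482 in db/+ GM-CSF against 2103 in db/db and 2491 in db/+ M-CSF. Between the M-CSF libraries 0 of the 14 were at least 2-fold apart.

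Among the receptors, Pparg, which directs lipid storage, was at 2780 in db/db and 2743 in db/+ GM-CSF against 1511 in db/db and 1508 in db/+ M-CSF (log2 fold 0.87, limma adjusted p = 7.71e-07), and Ppara was under the level minimum in every library. Ppargc1b, a coactivator of mitochondrial genes, was at 391 in db/db and 323 in db/+ GM-CSF against 46.2 in db/db and 73.2 in db/+ M-CSF. Bcl6, a repressor that unliganded PPAR-delta is known to hold in macrophages, was at 523 in db/db and 581 in db/+ GM-CSF against 1603 in db/db and 1801 in db/+ M-CSF. Of 17 genes of receptors, partners and coregulators 4 rose and 7 fell, or 2 and 12 with library-total scaling.

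Other known PPAR targets went both ways in GM-CSF, with 9 of 17 risen, 5 fallen and 3 not past the test, and 8 risen and 5 fallen with library-total scaling. Fabp4 and Fabp5, the fatty acid-binding proteins of macrophages and fat cells, were at 8627 and 19663 in db/db and 8828 and 16473 in db/+ GM-CSF, against 688 and 1693 in db/db and 422 and 1437 in db/+ M-CSF. Plin2, the coat protein of lipid droplets and a known target of PPAR-delta in macrophages, was at 15692 in db/db and 15356 in db/+ GM-CSF against 8915 in db/db and 11227 in db/+ M-CSF. It rose (log2 fold 0.63, limma adjusted p = 7.29e-05) where Pdk4 and Angptl4 fell. Lpl, the lipase that Angptl4 inhibits, was at 76195 in db/db and 72708 in db/+ GM-CSF against 31214 in db/db and 33897 in db/+ M-CSF, so the lipase rose where its inhibitor fell. In the list of 10 genes of the lipase system 4 rose and 2 fell, or 4 and 3 with library-total scaling.

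Between the M-CSF libraries 1 of these 17 targets was at least 2-fold apart. Vldlr, a lipoprotein receptor chosen after its value was seen, was at 362 in db/db cells and 131 in db/+ cells (2.75, 2.09 to 3.67). Plin2 was lower, at 8915 in db/db against 11227 in db/+ (0.794, 0.765 to 0.824). Pdk4 and Plin2, both known targets of the receptor, thus lay on opposite sides of 1, with Angptl4 at 1.15 and Ppard at 1.0.

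**Figure D5:**
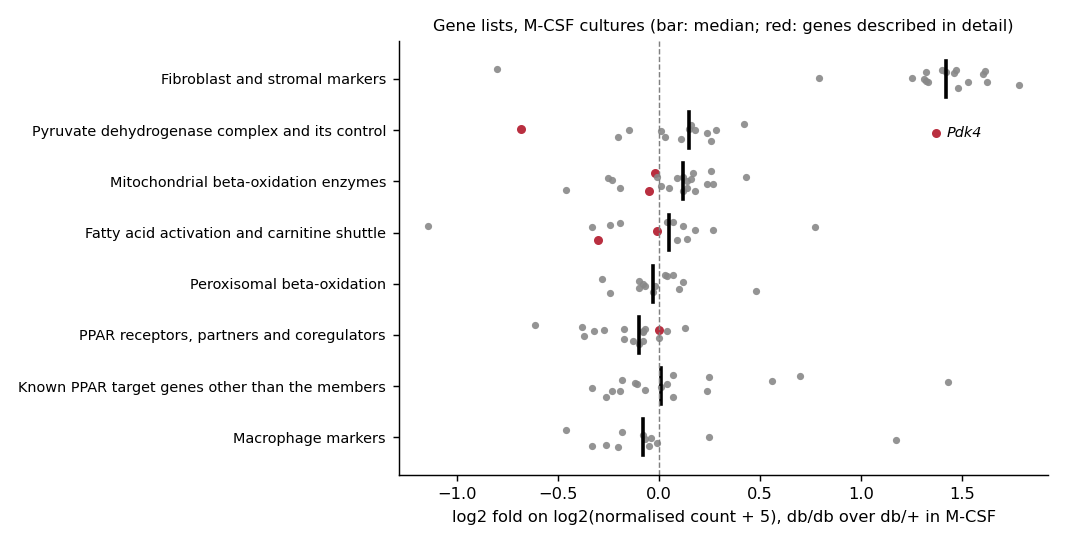
Log2 fold of db/db over db/+ in M-CSF on log2(normalised count + 5) for the genes of 8 lists that reached the level minimum, 1 point per gene, with the median of each list as a bar and those of the 9 genes that belong to a list in red. Pdk4, at 1.37, lies within the stromal markers (median 1.42) and far from the rest of its own list (median 0.15).

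Ucp2 also belongs to the mitochondrial carrier family, in which Slc25a5, an adenine nucleotide carrier, rose in GM-CSF to 10033 in db/db and 9967 in db/+, against 4495 in db/db and 3823 in db/+ M-CSF. Ucp1 and Ucp3 were under the level minimum in every library. Of 5 uncoupling and nucleotide carriers tested 2 rose and 3, Ucp2 among them, did not pass, while with library-total scaling 1 rose and 1, Ucp2, fell.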

How the data were processed

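Each deposited file gives 1 signal value per gene, which the authors' file names call TMM data. The values themselves show read counts divided by 1 size factor per library and rounded to 1 decimal. The submitters' processing notes list TopHat 1.2.0, edgeR and the builds mm8 and mm9, with no role for any. Nothing used here names the counter, annotation or strandedness, so reads of a gene and of one that overlaps it on either strand cannot be told apart.

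Read counts were recovered by dividing by the step of 1 read, 1.08 in db/db and 1.12 in db/+ GM-CSF and 0.871 in db/db and 0.951 in db/+ M-CSF. All values came out whole within 0.1 (100% in each library). Even counts were commoner than odd ones (52.6% to 56.3% of counts of 1 to 20), so mates were taken as counted apart and intervals used read pairs. A library at 0 was set to a floor of 3 read pairs in folds written as "at least".

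Genes with a value of at least 20 in 1 library were kept. The main test was limma 3.58.1 in R 4.3.3 (variance trend, prior of 12.87 degrees of freedom, two-sided, Benjamini-Hochberg, threshold 0.05) because the deposited unit is not a count. edgeR 4.0.16 (quasi-likelihood) and DESeq2 1.42.0 on recovered reads were alternatives, edgeR passing 7746 genes for culture and 103 for genotype. Scripts were tested on simulated data. No group had a replicate, so the p-values hold no spread between replicates. In limma they set an effect against departures from additive culture and genotype effects, moderated by a trend over all genes.

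The 9 genes and the 14 lists were chosen with earlier results of these data known. Beside the 9, the text names up to 4 genes per list with the largest fold among those reaching 200, genes paired by role, and for likeness the nearest 5. Genes outside these rules (such as Acacb, Vldlr, Cpt1c, Pdpr, Mmp8, Fstl1, Lyz2, Adipoq and markers at 0) were named after their values were seen. Some genes that these rules select are not reported here.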

Additional observations from a re-analysis of the deposited data

Results flagged for a closer look

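Pdk2 and Ucp2 had genotype ratios on opposite sides of 1 in the 2 cultures, with both counting intervals clear of 1, and the difference was not tested. The ratio of db/db over db/+ was 0.621 for Pdk2 in M-CSF and 1.31 in GM-CSF, and 0.769 for Ucp2 in M-CSF and 1.05 in GM-CSF. Pdk2 also changed sides between the marrows, with a ratio of GM-CSF over M-CSF of 1.35 in db/db and 0.640 in db/+, though the db/db log2 fold was 0.07 with library-total scaling. The intervals cover counting error only. That of Pdk2 in GM-CSF ran from 1.01 to 1.70, and an interval that ends so near 1 does not show a difference. For genes with 200 to 1000 normalised reads, Pdk2 among them, the squared log2 ratio between the M-CSF libraries averaged 7.01 times the counting variance. Between the GM-CSF libraries it averaged 1.09 times. For genes with 1000 to 10000 the averages were 18.3 times in M-CSF and 1.44 times in GM-CSF. Ucp2 stood above both ranges, and no such factor was computed at its level. The Ucp2 fold in GM-CSF was ordinary, with 4104 of 13642 genes above it. Each of these pairs rests on 4 single libraries, and Pdk2 had 292 reads in db/db and 214 in db/+ GM-CSF and 267 in db/db and 394 in db/+ M-CSF.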

How the results depend on the processing

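No paired analysis was possible because each group has 1 library and no replicate number, beyond the second factor of the reported fits, in which each culture is compared within a genotype. Without that factor limma passed 7740 genes for culture (7787 as reported). Of 140 log2 folds of the 9 genes between 2 libraries under another pseudocount or scaling, 125 stayed within their counting interval and 15 moved outside it, 13 of them with library-total scaling. Genes 2-fold or more apart between db/db and db/+ numbered 471 with a pseudocount of 20, 1366 with no filter and 334 with a level minimum of 200 in M-CSF (795 as reported). In GM-CSF it was 560 with a pseudocount of 1, 1 with 20, 316 with no filter and 13 with a minimum of 200 (145 as reported). With a pseudocount of 1, Pdk4 made 1 of the 9 genes at least 2-fold apart in GM-CSF, on 1 read. For GM-CSF over M-CSF a minimum of 200 left 2225 genes in db/db and 2318 in db/+ (3702 and 3771 as reported). For culture limma passed 0 genes with no filter (8129 at an unadjusted p under 0.05), and then Pdk4, Angptl4, Cpt1a and Ppard did not pass either. With no variance trend Cpt1a and Ppard did not pass, nor did Ppard with DESeq2 (adjusted p = 0.168, 0.00236 to 0.616 over the alternatives). With library-total scaling Acadvl and Hadha reversed to -0.20 and -0.22, and Hadha passed at that value. Cpt2 and Ucp2 then passed at -0.36 and -0.53. For genotype the passing genes were 2 with a pseudocount of 1, 3 with a minimum of 200, 2 with DESeq2 and 103 with edgeR. They were 0 with a pseudocount of 20, no filter, no trend, no second factor or library totals (629, 795, 617, 1 and 544 at an unadjusted p under 0.05). The cause of these changes was not tested. Depth limits Pdk4 in GM-CSF (0 reads and 1 read), and Angptl4 and Pdk2 had 75 to 394 reads.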
